A study of Mus musculus with 12 samples.

Results

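The net outcome of cardiac differentiation was measured by setting cardiac bodies, collected at day 14 of culture, against the undifferentiated mouse embryonic stem (ES) cells they came from, at day 0. Both stages were profiled on the Affymetrix Mouse Exon 1.0 ST array, and every one of the 23332 transcript clusters of the gene-level table entered the comparison. A transcript cluster is the array's unit for a gene. The comparison rests on 4 of the 6 gene-level samples, with 2 per stage. The other 2 are embryonic bodies of day 7, aggregates at an intermediate stage, and their values are given alongside. The 6 samples also have exon-level profiles, which makes 12 profiles in the series, made to study gene expression and splicing in heart development. Per the labels, all stages were grown in DMEM-based medium with 10% serum, with no further treatment, and total RNA was depleted of ribosomal RNA before amplification and biotin labelling. The labels do not name the ES cell line or the mouse strain, do not say how cardiac bodies were formed or selected, and do not state that the 2 samples of a stage came from separate cultures. The p-values therefore measure only how far these samples spread, and that spread may be technical.

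ES cells renew themselves under a network of transcription factors built around Pou5f1, Nanog and Sox2, which in mouse cells is fed by leukaemia inhibitory factor (LIF) through the kinase-activated factor Stat3. When they aggregate, mesoderm forms and part of it becomes heart muscle under factors such as Tbx5, Nkx2-5, Gata4 and Mef2c. These switch on the sarcomere, the calcium cycle and the mitochondrial metabolism of beating cells. Aggregates are mixed tissue, and endoderm, vessel and stromal cells commonly form beside the muscle.

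All values are log2 signals as deposited. Differences are log2 differences, day 14 minus day 0, ± the standard error of a limma fit over all 6 samples, and the calls are those with a Benjamini-Hochberg adjusted p under 0.05 over all 23332 clusters. Array signal saturates at both ends of its range and depends on the probes, so levels are compared between samples and not between genes. The 2 samples of a stage correlated across clusters at 0.973 to 0.978, with a median absolute difference of 0.227 to 0.286, and sample medians lay between 6.47 and 6.79. All 6 heart markers that were followed whatever their test (Myl2, Tnnt2, Actn2, Ryr2, Pln and Nkx2-5) were called higher in the cardiac bodies. They were chosen with earlier results of these data known, so their calls are no independent check of the cardiac label.

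Cardiac bodies differed from ES cells far more often by gain than by loss. At day 14, 614 clusters (2.63% of all tested) were called higher and 160 (0.686%) lower, so that 79.3% of the calls were rises, while the median over all clusters was -0.03. Rises were also larger: 337 of them reached 2 or more and 73 reached 4 or more, whereas 34 falls reached 2 and none reached 4. The median rise was 2.08, from a median level of 6.0 at day 0 through 7.61 at day 7 to 8.48 at day 14. The median fall was -1.51, from 8.8 through 6.58 to 7.09. Leaving out 1 sample lowered these counts. Rises numbered 138 without replicate 1 and 147 without replicate 2 of the ES cells, 158 without replicate 1 and 294 without replicate 2 of the cardiac bodies, and 475 without either day 7 sample. Falls numbered 17, 11, 12, 46 and 70 in the same order. With every sample centred on its median, 510 clusters were higher and 276 lower, which made 64.9% of the calls rises. Of the 101 called genes named by rule, 43 kept their call in all 6 of the fits that left out 1 sample.

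**Figure D1:**
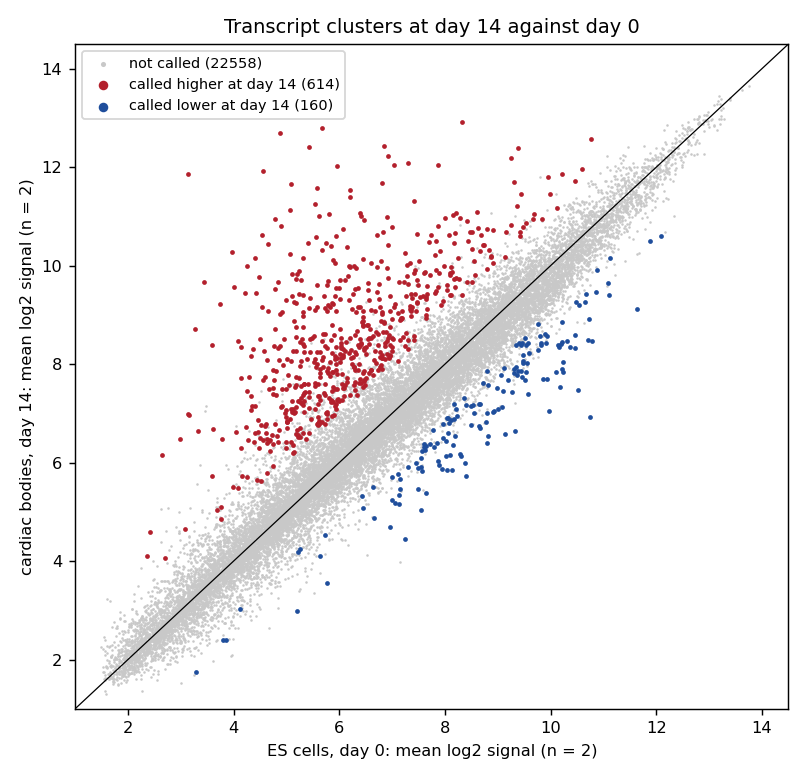
Mean log2 signal of the 2 ES cell samples (day 0, horizontal axis) against that of the 2 cardiac body samples (day 14, vertical axis), with 1 point per transcript cluster. The 614 clusters called higher reach much farther from the diagonal than the 160 called lower.

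The 15 largest rises and the 15 largest falls among called clusters with 1 gene symbol differed in shape. Of the rises, Myl2, Tnnt2, Tnnc1, Tnni1 and Ankrd1 are sarcomere genes, while Alb, Afp, Antxr2 and Acta2 lie outside the heart lists. Myl2, the regulatory light chain of the ventricle, read 3.02 and 3.26 in the ES cells and 11.78 and 11.92 in the cardiac bodies. At day 7 it still read 2.84 and 2.96. The cardiac bodies stood far above both earlier stages, whose samples lay close together, and the difference of 8.71 ± 0.18 was the largest of all (limma adjusted p = 0.00035). The largest fall was that of Emp1, an epithelial membrane protein, by 3.81 ± 0.35 (limma adjusted p = 0.00691).

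**Figure D2:**
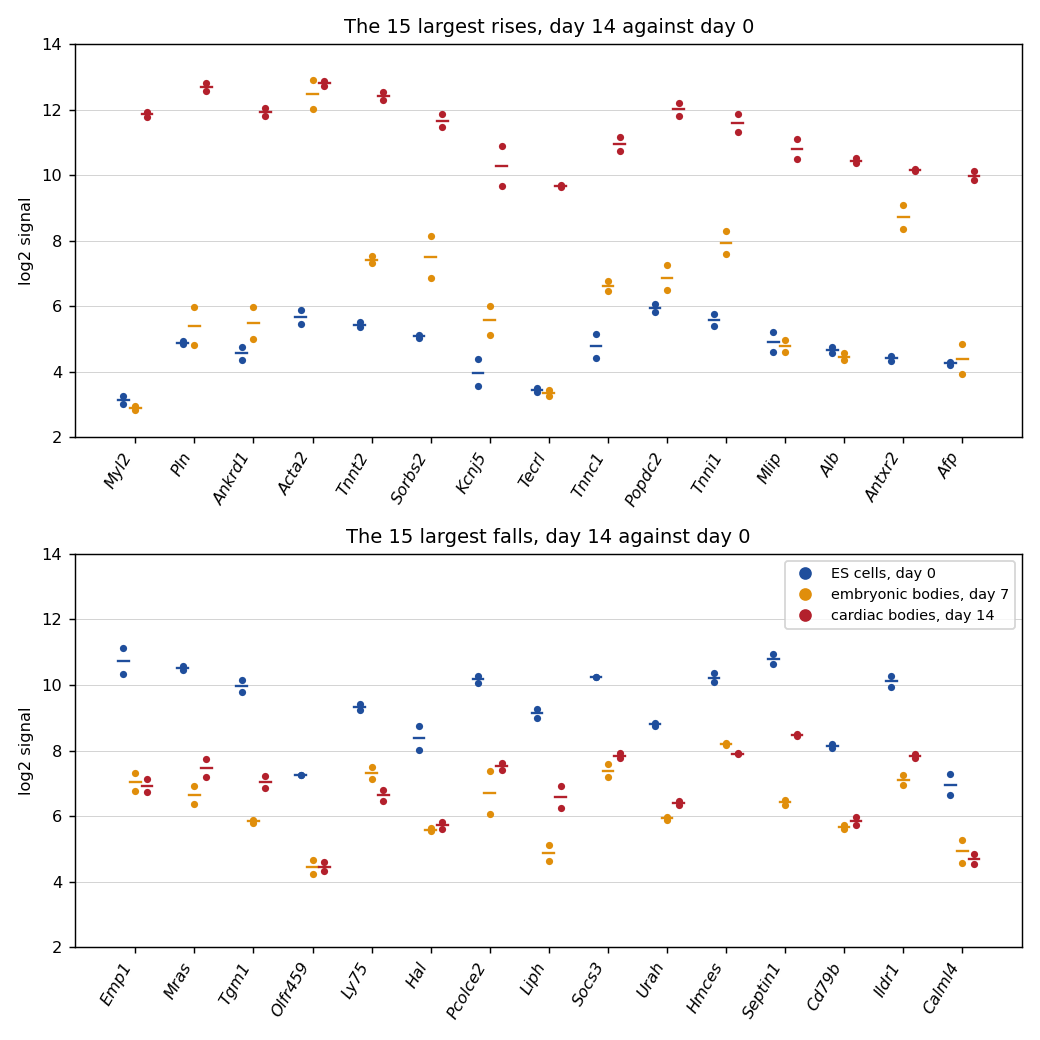
Log2 signal of the 15 genes with the largest rise (top) and the 15 with the largest fall (bottom) at day 14 against day 0. Each point is 1 sample, short lines are the means of 2 samples, and colours mark the 3 stages. Among rises the day 7 samples of Myl2, Tecrl, Mlip, Alb and Afp sit near the ES cells while those of Acta2 sit near the cardiac bodies, and among falls no day 7 sample reaches the ES cells.

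Among the lists, that of the sarcomere had the largest share of members called higher and the highest median difference. Of 41 listed sarcomere genes 26 had a row of their own, and 20 of these were called higher and none lower, with a median of 4.37, against the 2.63% called higher and the median of -0.03 over all clusters. With 1 sample left out, 18 to 20 members were called, and Myl2, Tnnt2, Tnnc1, Tnni1, Ankrd1 and Actn2 kept their calls in each such fit. Tnnt2, cardiac troponin T, which ties the troponin complex to tropomyosin, read 5.35 and 5.51 at day 0, 7.52 and 7.31 at day 7 and 12.54 and 12.29 at day 14. Its 3 stages did not overlap, and the net difference was 6.99 ± 0.19 (limma adjusted p = 0.000562). Actn2, the alpha-actinin of the Z disc, read 5.53 and 5.55 at day 0 and 5.6 and 5.64 at day 7, then 11.52 and 10.99 at day 14. Its whole rise of 5.72 ± 0.23 thus lay after day 7 (limma adjusted p = 0.00143). Tpm1, a tropomyosin of the thin filament, was higher already at day 7, with 9.28 and 9.47 at day 0, 12.0 and 12.2 at day 7 and 12.53 and 12.24 at day 14. Myl7, the atrial light chain, rose by 5.30 ± 0.29, the thick filament protein gene Mybpc3 by 4.67 ± 0.20 and the Z disc genes Myoz2 and Csrp3 by 5.23 ± 0.28 and 4.55 ± 0.31 (limma adjusted p from 0.00152 to 0.00368).

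Of the listed skeletal muscle genes none was called. Acta1, skeletal actin, differed by 0.38 ± 0.37 (limma adjusted p = 0.694), and Tcap, a Z disc cap of striated muscle, by 0.64 (adjusted p = 0.44). Of the 20 skeletal muscle genes with a row, among them Myod1, Myog and the fast troponins, none was called by limma, and the median was -0.01. An unadjusted limma p under 0.05 was found for 2 of them and for 4056 of all 23332 clusters. Myod1, the master regulator of skeletal muscle, read 6.07 and 6.08 in ES cells and 6.6 and 6.16 in cardiac bodies, and Myog, which acts after it, read 5.65 and 5.72 against 6.17 and 5.41. These samples overlapped or lay within 1 unit of each other.

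Promoter sequence is shown for the 3 genes among the 15 largest rises that hold an MCAT element, the binding motif of TEAD factors known from muscle promoters. The windows are the 250 bases before the start that RefSeq annotates on GRCm38.p6, on the strand of the gene, and capitals mark the motif CATTCCT or its reverse complement. Tnnt2 is at chr1:135836084-135836333 (plus strand), Ankrd1, a stress-responsive gene of the sarcomere, at chr19:36119845-36120094 (minus strand), and Acta2, smooth muscle actin, at chr19:34255374-34255623 (minus strand).
Tnnt2: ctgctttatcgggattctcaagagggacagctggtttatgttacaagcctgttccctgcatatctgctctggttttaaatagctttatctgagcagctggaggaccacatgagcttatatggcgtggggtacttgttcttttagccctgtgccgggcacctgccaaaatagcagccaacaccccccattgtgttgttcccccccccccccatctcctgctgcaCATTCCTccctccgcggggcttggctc
Ankrd1: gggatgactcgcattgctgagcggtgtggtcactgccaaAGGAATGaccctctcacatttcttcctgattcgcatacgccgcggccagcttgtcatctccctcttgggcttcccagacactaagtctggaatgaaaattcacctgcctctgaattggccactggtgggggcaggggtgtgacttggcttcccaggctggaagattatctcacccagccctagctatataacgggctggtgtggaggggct
Acta2: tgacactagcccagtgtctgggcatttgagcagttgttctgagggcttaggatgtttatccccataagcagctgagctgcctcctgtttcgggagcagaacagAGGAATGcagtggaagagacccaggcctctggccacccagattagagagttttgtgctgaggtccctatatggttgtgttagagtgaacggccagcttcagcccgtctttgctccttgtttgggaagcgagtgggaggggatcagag
The motif begins 27 bases before the start in Tnnt2, 211 in Ankrd1 and 147 in Acta2. Searched on both strands, it was found in 3 of 21 windows of the 15 largest rises, in 5.83% of 617 windows of all called rises and in 4.51% of all 32851 windows. The CArG box, another motif, was searched in the same windows in its strict form only, CCWWWWWWGG, where W is A or T. This form was found in 0, 2.27% and 1.47% of them in that order. Looser forms, such as ccctatatgg in the Acta2 window, were not counted, so the 0 does not show that CArG boxes are absent. A match describes letters and is no measure of binding, and the motifs were chosen after several had been looked at.

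Excitation and calcium cycling rose beside the sarcomere. In the list of calcium handling and ion channels, 20 of 31 members were called higher and none lower, with a median of 1.83. The count fell to 12 without either day 7 sample, to 8 without either ES cell sample and to 10 without replicate 1 of the cardiac bodies. Pln, phospholamban, which restrains the calcium pump, read 4.93 and 4.84 at day 0, 4.83 and 5.97 at day 7 and 12.81 and 12.57 at day 14. The pump itself, Atp2a2, read 10.46 and 10.71 at day 0, 10.06 and 10.28 at day 7 and 12.05 and 11.85 at day 14. The inhibitor differed by 7.80 ± 0.38 and the pump, which was high on its own scale from the start, by 1.37 ± 0.20 (limma adjusted p = 0.00182 and 0.0269). Ryr2, the calcium release channel, read 6.03 and 6.37 at day 0 and 10.17 and 9.79 at day 14, a rise of 3.78 ± 0.30 (limma adjusted p = 0.005). Pln and Ryr2 kept their calls with any sample left out. Slc8a1, the sodium-calcium exchanger, Cacna1c, the L-type calcium channel, and Camk2d, a calcium-dependent kinase, rose by 4.83 ± 0.28, 3.05 ± 0.21 and 4.65 ± 0.23. Casq1, the calsequestrin of skeletal muscle, read 6.18 and 6.72 at day 0 and 9.48 and 8.43 at day 14 and was among the calls (2.5 ± 0.39, limma adjusted p = 0.0342). Hcn2, a pacemaker channel, read 6.4 and 6.33 against 6.45 and 6.1 and was not called.

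Among the 31 cardiac transcription factors 15 were called higher and none lower, with a median of 1.84. This count was 5 without either ES cell sample and 3 without replicate 1 of the cardiac bodies, the lowest of the leave-one-out fits. Irx4, a ventricular factor, read 5.55 and 5.33 at day 0, 5.63 and 5.70 at day 7 and 9.73 and 8.98 at day 14, and Myocd, the myocardin coactivator, read 5.95 and 5.56, then 7.54 and 7.39, then 10.61 and 10.32. Their rises were 3.91 ± 0.28 and 4.71 ± 0.22 (limma adjusted p = 0.00421 and 0.0018), and both kept their calls with any sample left out, which Tbx5, Tbx20, Gata6 and Nkx2-5 did not. Tbx5, a T-box factor of the first heart field, read 4.17 and 4.78 at day 0, 6.32 and 5.03 at day 7 and 10.25 and 9.3 at day 14. Nkx2-5, the homeobox factor of heart progenitors, read 7.48 and 7.37 at day 0, 7.75 and 7.86 at day 7 and 9.72 and 9.13 at day 14, a rise of 2.0 ± 0.24 (limma adjusted p = 0.0155). Gata4, Mef2c and Hand2 rose by 3.04 ± 0.42, 3.21 ± 0.41 and 2.75 ± 0.32, and each had risen by 2.13 to 3.18 at day 7. Isl1, a factor of early heart progenitors, read 5.21 and 5.32 at day 0, 7.84 and 8.79 at day 7 and 6.29 and 6.78 at day 14. Its net difference of 1.27 ± 0.36 was not called (limma adjusted p = 0.151), and Mesp1, which marks early mesoderm, differed by -0.11.

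Energy supply changed unevenly. In the list of muscle metabolism and secreted factors 10 of 18 members were called higher, with a median of 2.05. The count was 7 without replicate 1 and 6 without replicate 2 of the ES cells, and 7 without replicate 1 of the cardiac bodies. Cox6a2, a muscle form of a cytochrome oxidase subunit, read 6.85 and 6.77 at day 0, 6.64 and 6.14 at day 7 and 11.92 and 11.44 at day 14, and Mb, myoglobin, read 6.07 and 5.76, then 5.56 and 5.67, then 10.46 and 9.63. Both rose after day 7, by 4.87 ± 0.26 and 4.13 ± 0.31 over day 0 (limma adjusted p = 0.00192 and 0.00448). Nppa, the atrial natriuretic peptide, rose by 3.75 ± 0.41, with 8.5 and 9.64 at day 14. Ppargc1a, a coactivator of mitochondrial genes, read 3.83 and 3.65 at day 0, 3.85 and 4.26 at day 7 and 9.4 and 9.02 at day 14, a rise of 5.47 ± 0.24 (limma adjusted p = 0.00152). Of 22 fatty acid oxidation genes, however, 5 were called: besides Ppargc1a the lipase Lpl, the fatty acid carrier Cd36, the thioesterase Acot2 and the thiolase Acaa2. The count was 4 without either day 7 sample, 2 without either ES cell sample or replicate 2 of the cardiac bodies, and 1 without replicate 1. Ppargc1a kept its call in each of these fits. None of the 28 genes of the respiratory chain and citric acid cycle was called, although 26 had a positive difference, and the median was 0.36. An unadjusted limma p under 0.05 was found for 6 of them and for 4056 of all 23332 clusters. Their differences ran from -0.12 to 1.31, the highest being Idh2 (limma adjusted p = 0.077).

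Of 21 junction and costamere genes 6 were called higher and none lower, against 2.63% and 0.686% of all clusters. The difference was positive in 20 of the 21, with a median of 0.94. Cdh2, the cadherin of the intercalated disc, read 6.04 and 6.89 at day 0, 10.19 and 10.14 at day 7 and 11.03 and 10.81 at day 14. Most of its rise of 4.45 ± 0.31 was in place at day 7 (limma adjusted p = 0.00368). Sgca, a sarcoglycan of striated muscle, read 5.86 and 5.6, then 5.64 and 5.79, then 9.01 and 8.2, and so rose after day 7. Gja1, the main gap junction gene of the ventricle, differed by 0.62 and was not called (limma adjusted p = 0.322). The count was 3 and 2 without replicate 1 and 2 of the ES cells and 4 without replicate 1 of the cardiac bodies.

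The 2 cardiac body samples were not equal in these lists. By the median over a list, replicate 1 exceeded replicate 2 by 0.43 for the sarcomere, by 0.39 for transcription factors and by 0.53 for metabolism and secreted products. In the same pair the members of the pluripotency list were lower in replicate 1 by 0.20, those of the germline list by 0.33 and those of the DNA replication list by 0.41, while endoderm members were lower by 0.11. Over all clusters the median of replicate 1 minus replicate 2 was -0.09. The part of these differences in the results was not tested. In bulk RNA, more cells of a type and more RNA per cell cannot be told apart, which holds for every list described here.

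**Figure D3:**
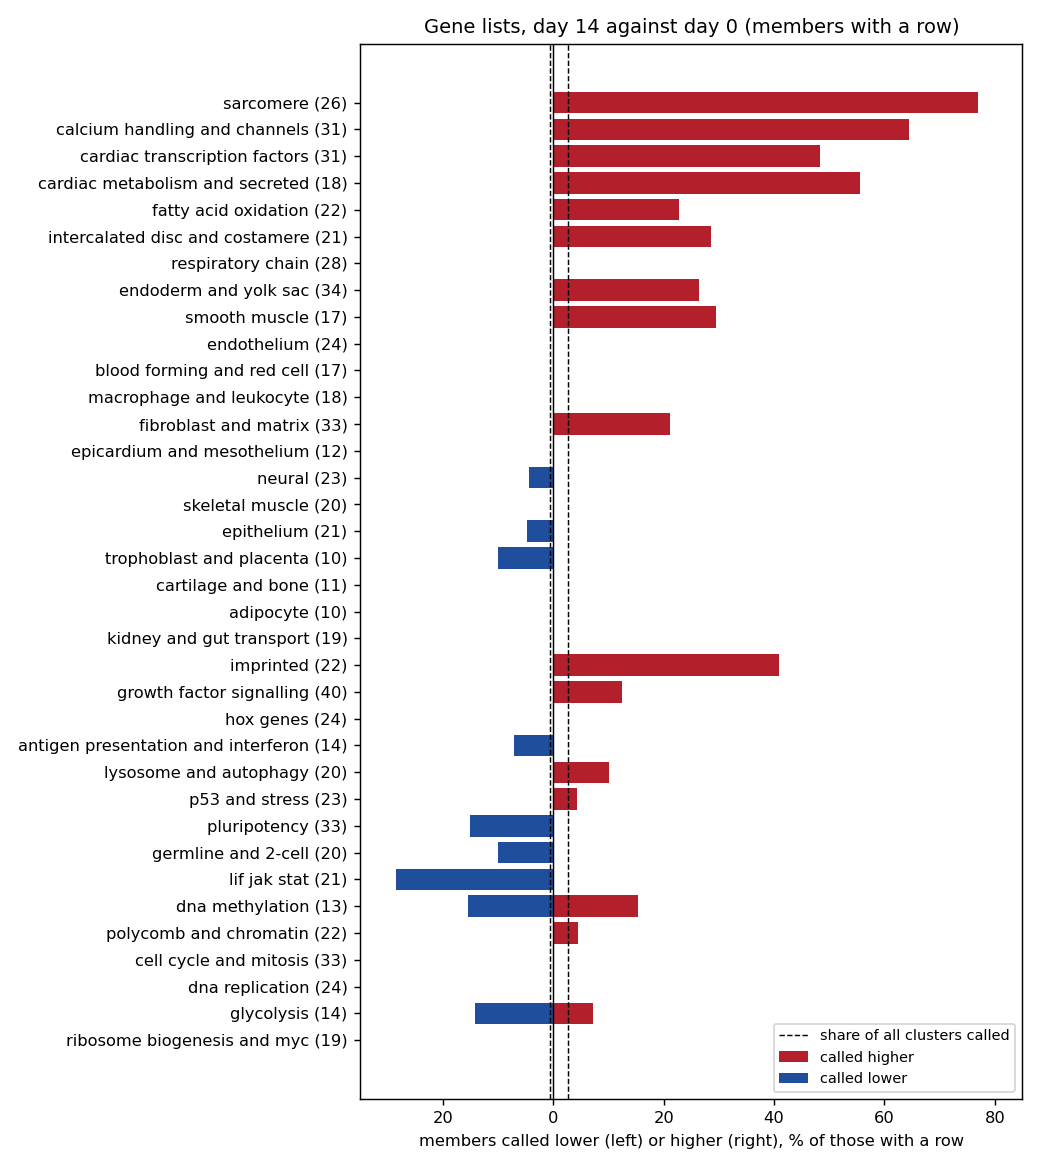
Share of the members of each gene list called higher (red, to the right) or lower (blue, to the left) at day 14 against day 0, in percent of the members with a row, whose number stands in brackets. Dashed lines mark the shares over all clusters, 2.63% higher and 0.686% lower. The sarcomere, calcium, metabolism and transcription factor lists reach farthest to the right, the LIF list, 3 of whose 6 called members were put there with their fall known, reaches farthest to the left, and several other lists have no bar.

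Most of the rises did not belong to a heart list. Of 551 higher clusters with 1 symbol, 78 were in a heart list, 473 in none of them and 434 in no list at all. The heart lists held only 18 to 31 genes with a row each, while 15002 clusters had 1 symbol. Lists of this size could not have held most of the rises. The split says how the lists were drawn as much as what the genes do, since several of the largest rises outside them are known from heart muscle. Tecrl, linked to inherited arrhythmia in humans, read 3.51 and 3.37 at day 0, 3.25 and 3.44 at day 7 and 9.69 and 9.65 at day 14. Its day 14 samples were nearly equal and stood clear of both earlier stages, with a difference of 6.24 ± 0.17 (limma adjusted p = 0.000562). Mlip, a lamin-interacting protein of muscle, rose by 5.90 ± 0.32, Lrrc10, a leucine-rich repeat protein of cardiomyocytes, by 4.64 ± 0.20 and Fsd2 by 4.61 ± 0.24, all with day 7 differences between -0.25 and 0.10. Tmod1, which caps the thin filament, rose by 5.06 ± 0.37, and Gyg, glycogenin, the primer of glycogen synthesis, by 4.79 ± 0.23. Sorbs2, an adaptor of the Z disc and of adhesions, read 5.13 and 5.04, then 6.86 and 8.13, then 11.85 and 11.46, and Cap2, an actin regulator, read 6.14 and 6.27, then 8.98 and 9.89, then 11.83 and 11.23. Both had risen in part at day 7. All of the genes named in this group kept their calls with any sample left out.

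Products of fetal liver and yolk sac rose in part. In the endoderm list 9 of 34 members were called higher and none lower, with a median of 1.0, against a background of 2.63%. The count was 3 without either ES cell sample and without replicate 1 of the cardiac bodies, 7 without replicate 2 and 12 without either day 7 sample. Alb, albumin, read 4.75 and 4.56 at day 0, 4.57 and 4.35 at day 7 and 10.51 and 10.36 at day 14, and Afp, alpha-fetoprotein, read 4.31 and 4.21, then 4.86 and 3.93, then 9.84 and 10.13. Neither stage before day 14 came near these levels, and the differences of 5.78 ± 0.19 and 5.73 ± 0.33 kept their calls with any sample left out (limma adjusted p = 0.000772 and 0.00241 with all samples). The fibrinogen chains Fga, Fgb and Fgg rose by 2.16 ± 0.22, 3.61 ± 0.58 and 2.25 ± 0.22, the plasma protein gene Ahsg by 2.70 ± 0.27 and the corticosteroid carrier Serpina6 by 3.07 ± 0.19 (limma adjusted p from 0.00261 to 0.038). Trf, transferrin, read 7.97 and 8.0 at day 0, dropped to 6.22 and 5.76 at day 7 and reached 10.13 and 9.87 at day 14, a net rise of 2.01 ± 0.22 (limma adjusted p = 0.0122). The regulators that define early endoderm did not follow: Sox17, Foxa2 and Hnf4a differed by 0.52, 0.09 and -0.10, and none was called. Gata6, the regulator that was called, belongs to both the endoderm and the cardiac list. Ttr, transthyretin, read 6.5 and 5.96 at day 0, 11.98 and 7.64 at day 7 and 10.11 and 9.93 at day 14. Its cardiac bodies lay clear of its ES cells, but the spread at day 7 left the difference of 3.79 ± 1.31 uncalled (limma adjusted p = 0.223). The median level of the endoderm list was 5.44 and 5.46 in the ES cells, 6.36 and 6.03 in the embryonic bodies and 6.78 and 6.62 in the cardiac bodies.

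Smooth muscle genes rose in part. Acta2 read 5.89 and 5.46 at day 0, 12.91 and 12.02 at day 7 and 12.87 and 12.73 at day 14, a net rise of 7.13 ± 0.34 (limma adjusted p = 0.0018). It was thus at its final level by day 7, while Kcnmb1, a potassium channel subunit of smooth muscle, went from 5.28 and 5.34 through 6.29 and 5.94 to 8.65 and 8.14. In all, 5 of 17 members were called higher, with a median of 1.21, and with 1 sample left out 2 to 4 were called, the fewest without replicate 1 of the ES cells or of the cardiac bodies. Des and Casq2, which are among the 5, are also expressed in heart muscle, as is Acta2 in the embryo. Cnn1, calponin, read 5.62 and 5.79 against 9.21 and 7.82 and was not called (2.81 ± 0.56, limma adjusted p = 0.0676). Myh11, the myosin heavy chain that defines mature smooth muscle, read 5.32 and 5.16 against 5.41 and 5.2, a difference of 0.06 ± 0.18.

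Part of the imprinted genes rose. Of 22 members 9 were called higher and none lower, with a median of 1.0, against 2.63% called higher over all clusters. The count was 5 without either ES cell sample or without replicate 2 of the cardiac bodies and 4 without replicate 1. Igf2, a fetal growth factor, read 6.72 and 6.95 at day 0, 12.75 and 12.58 at day 7 and 12.43 and 12.42 at day 14. Plagl1, a zinc finger factor, read 5.58 and 5.98, then 9.75 and 9.07, then 9.13 and 9.25. In both, the later stages overlapped or lay close together far above the ES cells, and the net rises were 5.59 ± 0.18 and 3.41 ± 0.29 (limma adjusted p = 0.000772 and 0.00593). Igf2 kept its call with any sample left out, and Plagl1 lost its call in 1 of the fits (highest adjusted p = 0.0524). H19, a noncoding RNA beside Igf2, rose by 3.21 ± 0.39, Ndn by 2.47 ± 0.19, Sgce by 2.71 ± 0.17 and Asb4 by 4.15 ± 0.56. Airn, an RNA that runs antisense to Igf2r, rose by 4.85 ± 0.36 and Igf2r by 2.14 ± 0.33. Another cluster of Airn differed by 1.53 and was not called, the mean of the 2 exon-level probe sets with this symbol differed by 1.8, and the labels do not state whether strand was kept. Peg3 had risen by 3.18 at day 7 and was 1.37 ± 0.24 above the ES cells at day 14.

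Among growth factors and matrix genes fewer members were called higher than in the imprinted list, against 2.63% of all clusters. Of 40 signalling genes 5 were called higher, with a median of 0.25. Tgfb2, a transforming growth factor, read 5.18 in both ES cell samples, 10.56 and 9.49 at day 7 and 8.87 and 8.23 at day 14, and Bmp7, a bone morphogenetic protein, read 7.3 and 7.2, then 9.93 and 10.78, then 10.2 and 10.3. Their net rises were 3.37 ± 0.40 and 3.0 ± 0.30 (limma adjusted p = 0.0152 and 0.00907). Fgf1, a fibroblast growth factor, behaved otherwise, with 6.26 and 6.53, then 5.65 and 5.95, then 7.97 and 8.82. Of 33 fibroblast and matrix genes 7 were called higher, with a median of 0.40: the matrix proteins Thbs1, Tnc and Vcan at 3.64 ± 0.42, 2.97 ± 0.42 and 2.12 ± 0.23, the basement membrane collagens Col4a1 and Col4a2, Col6a1 and the secreted Fstl1. The fibrillar collagens that define fibroblasts differed little, Col1a1 by 0.29 ± 0.45 and Col3a1 by 0.36 ± 0.43. Neither list was firm: without replicate 1 or 2 of the ES cells, or replicate 1 of the cardiac bodies, no member of either was called, and without replicate 2 of the cardiac bodies 1 and 0 were called.

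For most other lineages no gene-level call was made at day 14. No member with a gene-level row was called in the endothelial (24), blood (17), macrophage (18), epicardial (12), cartilage (11), adipocyte (10), kidney and gut (19) or Hox (24) lists. At an unadjusted limma p under 0.05 they held 4, 2, 3, 2, 2, 1, 2 and 2 members in that order. Over all 23332 clusters 4056 had such a p, while 2.63% were called higher and 0.686% lower. In the neural, epithelial and trophoblast lists the single call was a fall (Elavl3, Spint1 and Tead4) that none of the fits with 1 sample left out called. Of the markers taken to define other cell types, 27 were not called, with Cnn1 the farthest from 0, and Alb and Afp were called. Some of the 27 already gave high signal in the ES cells, with day 0 means of 11.78 for Stmn2, 11.64 for Cdh1, 10.67 for Epcam and 8.8 for Pecam1. For such genes a difference from ES cells cannot tell whether the cell type formed. Cdh5, the endothelial cadherin, read 5.07 and 5.33 at day 0, 9.41 and 10.26 at day 7 and 6.64 and 6.58 at day 14. The net difference of 1.41 ± 0.31 was not called (limma adjusted p = 0.086), and Kdr, a receptor of vascular growth factor, read 5.0 and 5.13 against 5.56 and 5.49. Hbb-y, an embryonic globin, read 4.78 and 4.5 in the ES cells and 4.57 and 4.47 in the cardiac bodies, with 10.48 in only 1 of the day 7 samples and 5.9 in the other. Ptprc and Csf1r, of leukocytes and macrophages, stayed within 3.06 to 3.32 and 4.81 to 5.22 over all 6 samples. An uncalled marker at this number of arrays does not show that the cells were absent.

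**Figure D4:**
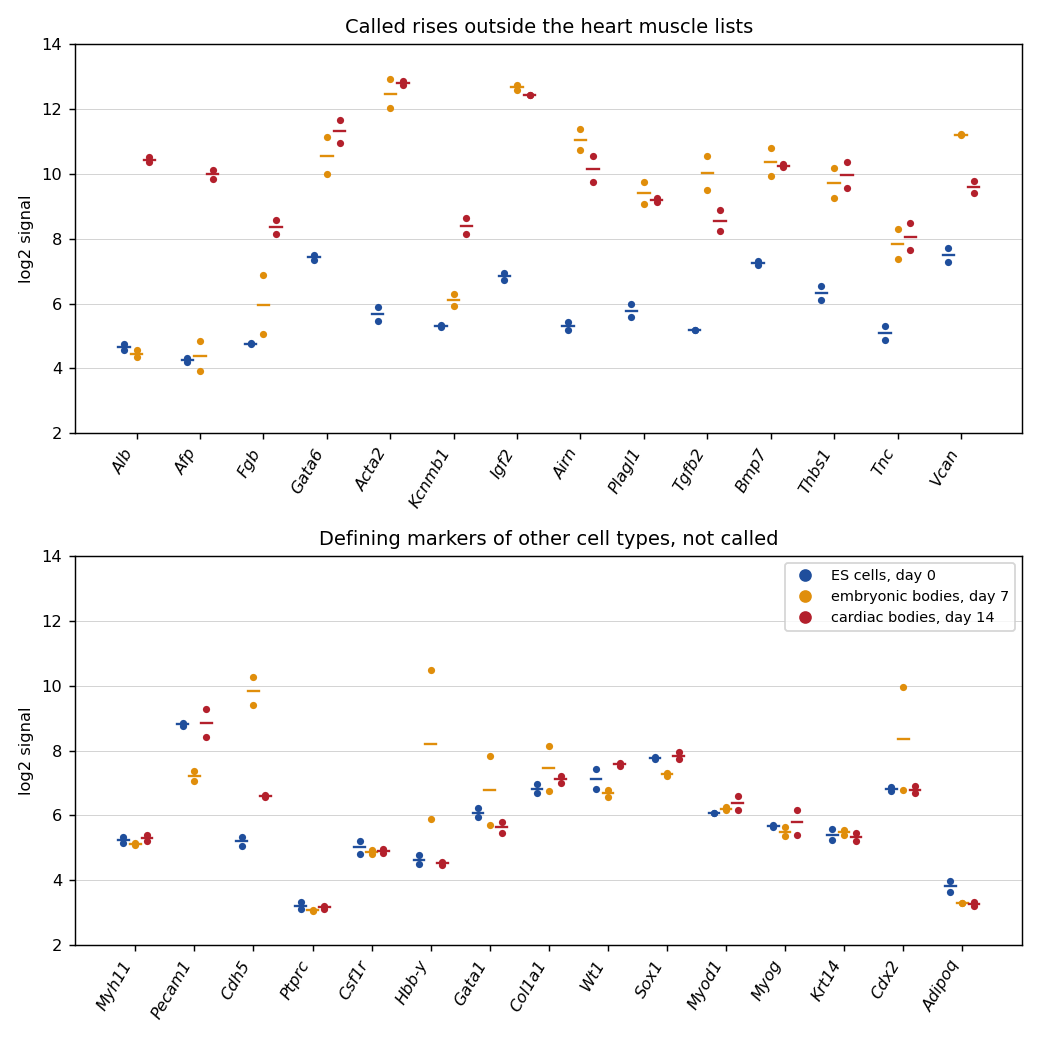
Log2 signal in each sample of called rises outside the heart muscle lists (top) and of defining markers of other cell types that were not called (bottom), with short lines at the means of 2 samples and colours for the 3 stages. In the top panel the cardiac bodies lie above the ES cells for every gene, and Gata6 is also a cardiac factor. In the bottom panel, which shows a selection without Cnn1, they lie near the ES cells except for Cdh5 (6.64 and 6.58 against 5.07 and 5.33). Cdh5 stands higher still at day 7, as do single samples of Hbb-y and Cdx2.

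The losses were fewer and of a different kind. A cluster was taken as lost for good where it was called lower than in ES cells at both day 7 and day 14 and was not called higher at day 14 than at day 7. This held for 116 clusters (0.497% of all tested), against 1232 called lower at day 7 (5.28%) and 160 at day 14. Over all clusters 493 (2.11%) were called higher at day 14 than at day 7. The comparisons share samples, and the set was chosen by these values, so its levels are a description. Of the other 44 that were lower at day 14, 25 had been called lower at day 7 and were called higher at day 14 than at day 7, and 19 had not been called at day 7. The 116 had a median level of 8.52 at day 0, 6.37 at day 7 and 6.9 at day 14. With 1 sample left out, between 8 and 54 clusters met the rule, and with samples centred on their medians there were 199. Lost does not mean silent, since the table gives no detection calls and nothing was measured after day 14.

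The largest of these losses included members of the LIF list. Whether LIF signalling itself changed between the stages was not tested. Emp1 read 10.35 and 11.13 at day 0, 6.78 and 7.31 at day 7 and 6.72 and 7.13 at day 14. Socs3, the feedback inhibitor of the LIF receptor pathway, read 10.23 and 10.25, then 7.58 and 7.18, then 7.76 and 7.93. Mras, a Ras-like GTPase, read 10.46 and 10.57, then 6.93 and 6.37, then 7.2 and 7.75. In each of them the ES cells stood alone and the later stages lay together. Socs3 fell by 2.40 ± 0.21 and Mras by 3.04 ± 0.29 (limma adjusted p = 0.00624 and 0.00711), and another cluster of Socs3 differed by -1.17 and was not called. Bcl3, a nuclear cofactor, fell by 2.19 ± 0.36, the homeobox gene Gbx2 by 1.77 ± 0.25 and the kinase gene Pim3 by 1.33 ± 0.20. In all, 6 of 21 genes of the LIF list were called lower, and all 6 belonged to the 116. Emp1, Mras and Socs3 had been put on that list with their fall already known, so its count is not independent evidence of its direction. The median over the list was -0.21, and the parts of the pathway itself were not called: Lifr, the receptor, differed by -0.98 ± 0.43, its partner Il6st by -0.21 ± 0.18 and Stat3 by 0.08 ± 0.20. Stat3 had been 1.24 lower at day 7. The count was 3 without either day 7 sample or without replicate 2 of the cardiac bodies, 1 without either ES cell sample and 0 without replicate 1 of the cardiac bodies.

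The promoters of 3 of these largest losses are shown because they hold the palindromic site that Stat3 and related factors bind, TTCNNNGAA, marked in capitals. The windows are again the 250 bases before the RefSeq start on GRCm38.p6, on the gene's strand: Emp1 at chr6:135362681-135362930 (plus strand), Socs3 at chr11:117969367-117969616 (minus strand) and Tgm1, a transglutaminase of barrier epithelia, at chr14:55713493-55713742 (minus strand).
Emp1: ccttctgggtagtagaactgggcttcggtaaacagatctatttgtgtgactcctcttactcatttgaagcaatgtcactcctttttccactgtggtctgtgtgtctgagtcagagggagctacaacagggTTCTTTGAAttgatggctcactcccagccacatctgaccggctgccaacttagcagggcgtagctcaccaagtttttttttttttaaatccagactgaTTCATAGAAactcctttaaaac
Socs3: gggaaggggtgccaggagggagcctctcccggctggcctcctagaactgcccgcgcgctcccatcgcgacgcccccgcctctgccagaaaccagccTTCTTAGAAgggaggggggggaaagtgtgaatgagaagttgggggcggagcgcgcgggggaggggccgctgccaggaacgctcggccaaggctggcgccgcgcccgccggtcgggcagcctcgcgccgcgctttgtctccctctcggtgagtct
Tgm1: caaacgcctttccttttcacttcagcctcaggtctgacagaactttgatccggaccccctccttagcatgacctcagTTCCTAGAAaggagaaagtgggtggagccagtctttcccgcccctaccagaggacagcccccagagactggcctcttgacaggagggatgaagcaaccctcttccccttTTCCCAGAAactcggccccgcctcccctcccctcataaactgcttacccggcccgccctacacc
Emp1 holds the motif at 120 and 22 bases before the start, Socs3 at 154 and Tgm1 at 173 and 64. Windows were given for 13 of the 15 genes with the largest falls, and 6 of these genes held the motif (Emp1, Socs3, Tgm1, Urah, Pcolce2 and Calml4), in 7 of 16 windows. The share was 14.4% of 90 windows of the lost clusters, 12.4% of 121 windows of all falls, 7.29% of 617 windows of rises and 7.02% of all 32851 windows. The motif reads the same on both strands. It was chosen with these genes known, the shares were not tested, and a match is no measure of binding.

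Beyond that list the losses were a mixed set. Tgm1 read 9.78 and 10.15 at day 0, 5.79 and 5.89 at day 7 and 6.87 and 7.23 at day 14, a fall of 2.92 ± 0.22 that kept its call with any sample left out (limma adjusted p = 0.00477). Hal, which begins histidine breakdown, read 8.03 and 8.76, then 5.64 and 5.53, then 5.62 and 5.83, and Urah, an enzyme of urate breakdown, read 8.84 and 8.76, then 5.98 and 5.88, then 6.35 and 6.46. Ly75, an endocytic lectin receptor, and Cd79b, a part of the B cell receptor complex, fell by 2.69 ± 0.22 and 2.29 ± 0.18. Liph, a phospholipase, fell by 2.54 ± 0.30. It had fallen by 4.25 at day 7, and its regain of 1.71 by day 14 narrowly missed a call (limma adjusted p = 0.0503). The regain of Tgm1, 1.21, missed it as well (limma adjusted p = 0.0567). Both genes thus met the rule for loss only by a small margin. Hmces, which guards abasic DNA sites, read 10.08 and 10.36, then 8.18 and 8.23, then 7.88 and 7.93. Its fall of 2.32 ± 0.18 kept its call with any sample left out (limma adjusted p = 0.005), and it too was put on the DNA methylation list with that fall known. Uhrf1, which guides maintenance methylation, went from 11.04 and 11.23 to 10.12 and 10.2, a fall of 0.97 ± 0.17 (limma adjusted p = 0.0487), while the methyltransferase gene Dnmt1 differed by -0.49 and Dnmt3b by 0.16. In the same list of 13, Tet3, a demethylating oxidase, and Apobec2, a deaminase relative known from striated muscle, were called higher, by 1.37 ± 0.20 and 2.88 ± 0.33, of which at most 1 was called with a sample left out.

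Of the 14 glycolysis genes with a row 2 were called lower and 1 higher, against 0.686% and 2.63% of all clusters. Hk2, a hexokinase, read 9.33 and 9.07 at day 0, 7.61 and 7.96 at day 7 and 7.67 and 7.68 at day 14, and was among the losses (-1.52 ± 0.21, limma adjusted p = 0.0229). Pfkp, the platelet form of phosphofructokinase, went from 11.1 and 10.61 through 7.33 and 7.29 to 9.57 and 9.34, while Pfkm, the muscle form, went from 8.83 and 8.84 through 9.09 and 9.1 to 10.57 and 10.07. The falls of Hk2 and Pfkp and the rise of Pfkm (1.48 ± 0.22, limma adjusted p = 0.0288) were the only calls among the 14 genes with a row. With 1 sample left out at most 1 of them was called lower and at most 1 higher.

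The pluripotency genes were not among the clusters lost for good. Of 33 members 5 were called lower at day 14 and none higher, with a median of -0.54. At day 7, 25 were called lower, with a median of -2.55, and no member met the rule. Over all clusters 0.686% were called lower at day 14 and 5.28% at day 7. With 1 sample left out at most 1 was called lower at day 14: 1 without either day 7 sample and 0 without any of the others. Pou5f1, the POU factor at the centre of the network, read 11.87 and 11.96 at day 0, 8.37 and 8.36 at day 7 and 11.06 and 11.18 at day 14. Nanog, its homeobox partner, read 12.6 and 12.83, then 10.3 and 10.22, then 12.16 and 12.34. Sox2 read 10.91 and 10.93, then 8.68 and 9.5, then 10.07 and 10.66. In all of these the cardiac bodies lay just below the ES cells and above the embryonic bodies. The net differences were -0.79 ± 0.17, -0.46 ± 0.18 and -0.56 ± 0.34, and none was called (limma adjusted p = 0.076, 0.281 and 0.485). Pou5f1 was called lower with clusters under the 25th percentile left out and with trend and robust moderation (limma adjusted p = 0.0495 and 0.033, with a range of 0.033 to 0.279 over the 13 alternatives). Nanog and Sox2 were called under none of the alternatives. For day 14 against day 7 they were 2.75 ± 0.17, 1.99 ± 0.18 and 1.28 ± 0.34, of which the first 2 were called (limma adjusted p = 0.00389 and 0.00972).

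The 5 called members are factors or markers of the naive state, but other such factors on the list were not called. Klf2, Tfcp2l1, Nr0b1 and Tbx3 differed by -0.9, -1.42, -0.65 and -0.38 (limma adjusted p from 0.0708 to 0.885). The calls thus do not set the naive factors apart from the rest of the list. Tcl1, an Akt cofactor, read 10.59 and 10.32 at day 0, 6.42 and 6.95 at day 7 and 8.27 and 8.4 at day 14. Its net fall of 2.12 ± 0.24 was the largest among the 33 members with a gene-level row (limma adjusted p = 0.0124). Esrrb, an orphan nuclear receptor, read 10.59 and 10.38, then 6.41 and 6.43, then 9.11 and 9.4, and Zfp42, the ES cell marker also called Rex1, read 10.01 and 9.87, then 6.07 and 5.67, then 8.36 and 8.78. All had been lower still at day 7. Klf5 and Nr5a2 fell by 1.48 ± 0.20 and 1.3 ± 0.23, and Klf4, which differed by -1.40 ± 0.26, was not called (limma adjusted p = 0.0563). Over the same 13 alternatives the adjusted p of Klf4 ran from 0.013 to 0.239, and it was called lower after centring, the 25th percentile filter, trend and robust moderation, and with exon-level means. Lin28a, an RNA-binding protein of early cells, read 9.81 and 9.93, then 9.95 and 9.86, then 9.39 and 9.6, and so moved little at either stage. Dppa2, read at 8.46 and 9.46 in ES cells, 4.76 and 5.53 in embryonic bodies and 8.75 and 10.47 in cardiac bodies, and Dppa5a, at 6.93 and 7.24, then 4.94 and 2.94, then 6.78 and 7.09, overlapped between the first and the last stage. The germline list ran alike, with 2 of 20 called lower, against 0.686% of all clusters. Hormad1, a protein of meiotic chromosomes, read 10.81 and 10.48, then 5.55 and 5.29, then 9.28 and 9.26. Morc1, which silences transposons in germ cells, read 9.32 and 9.6, then 4.81 and 5.48, then 7.75 and 7.73. Neither these falls nor those of Esrrb, Zfp42, Klf5 and Nr5a2 kept a call with an ES cell sample left out.

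**Figure D5:**
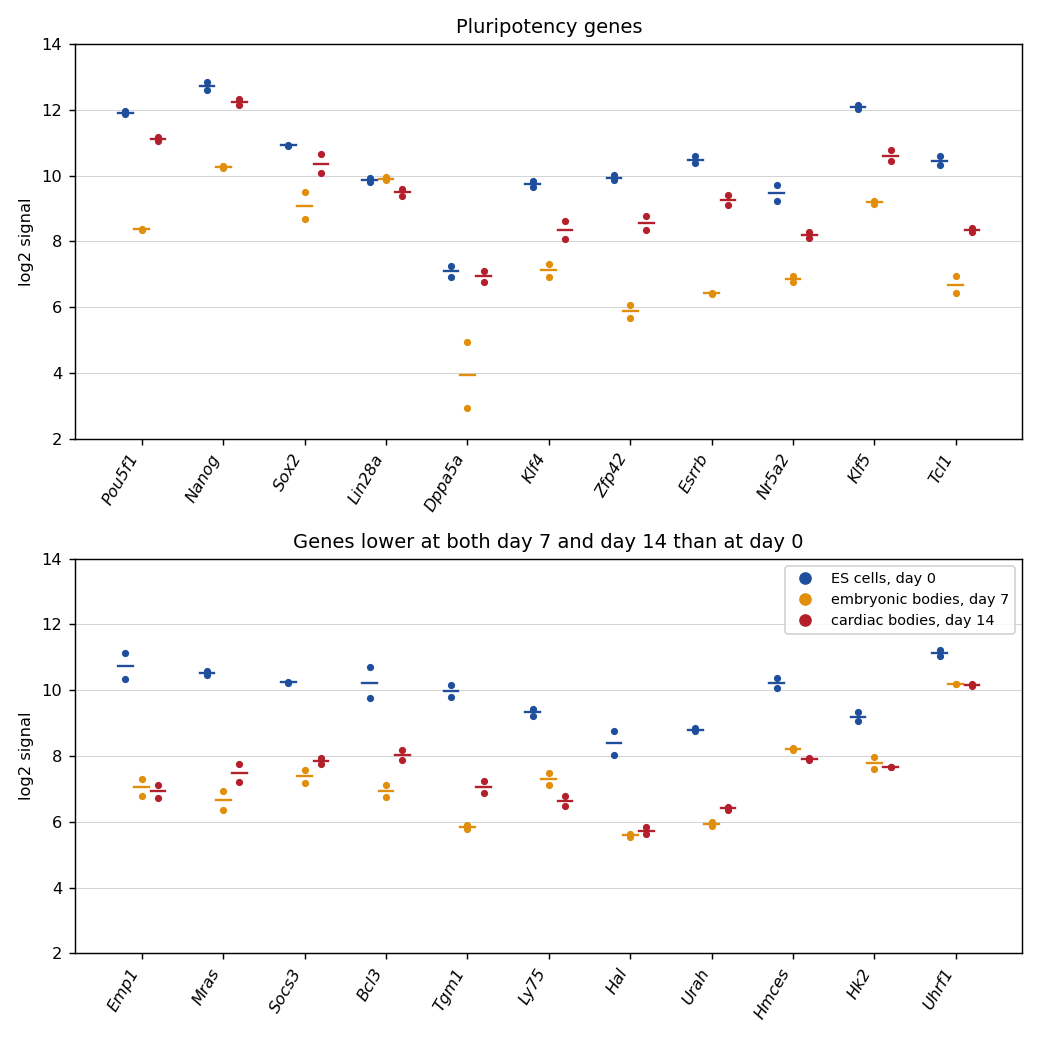
Log2 signal in each sample of pluripotency genes (top) and of genes called lower at both later stages (bottom), with short lines at the means of 2 samples and colours for the 3 stages. In the top panel the cardiac bodies lie between the embryonic bodies and the ES cells for most genes, Lin28a moving little and Dppa5a overlapping the ES cells. In the bottom panel both later stages lie well below the ES cells, with Uhrf1 the smallest fall.

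Growth-related genes gave no call, though most differences were below 0. None of 33 cell cycle genes was called, with 4 of them positive and a median of -0.60, and none of 24 DNA replication genes, all of which were negative, from -1.31 to -0.19. Ribosome biogenesis and Myc genes had no call among 19 either, with a median of -0.45. At an unadjusted limma p under 0.05 these lists held 17, 11 and 8 members, against 4056 of all 23332 clusters. Mki67, a protein of dividing cells, differed by -0.93 (limma adjusted p = 0.128) and Mcm2, a part of the replication helicase, by -0.34 (adjusted p = 0.376). Cdkn1a, an inhibitor of cyclin-dependent kinases, was the one call of 23 stress and p53 genes. It read 9.23 and 9.06 at day 0, 10.71 and 11.39 at day 7 and 10.6 and 10.78 at day 14, a rise of 1.55 ± 0.27 (limma adjusted p = 0.047). The polycomb list held 1 call of 22, Cbx8, at 1.26 ± 0.19, and Lamp2 and Gabarapl1, of lysosomes and autophagy, rose by 1.13 ± 0.20 and 1.38 ± 0.24 among 20. Ifitm3, an interferon-induced membrane protein, was the one call of 14 antigen presentation and interferon genes, with 10.57 and 10.87, then 7.55 and 7.03, then 8.67 and 9.18. Over all clusters 2.63% were called higher and 0.686% lower, so such few calls are not read as a result about these lists. These last calls (Cdkn1a, Cbx8, Lamp2, Gabarapl1 and Ifitm3) were all lost with either ES cell sample left out.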

How the data were processed

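Transcript levels were measured on Affymetrix Mouse Exon 1.0 ST arrays. The deposited values are log2 signals. The submitters' processing notes name RMA and Affymetrix Power Tools, without versions, as what the authors used. Per the labels, signals were summarised over the core mm9 set to transcript clusters. Samples were grouped by the labels' stage. The log2 values were tested as deposited with limma 3.58.1 in R 4.3.3 (lmFit, eBayes, 2-sided), all 6 gene-level samples in 1 fit with 3 residual and 2.64 prior degrees of freedom, and Benjamini-Hochberg adjustment over 23332 clusters. The number of arrays limits the precision, and no low-signal filter was applied.

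Symbols came from the platform annotation, updated through a GRCm38.p6 gene table: 15002 clusters had 1 symbol, all of which matched, 1013 had several and 7317 none. Clusters with several or no symbol were tested and counted but not named. A gene with several clusters is given by the one with the highest mean. Genes were named by rule: the 15 largest changes each way, up to 4 called members per list and direction, the 20 largest rises outside the heart lists, the 15 largest losses, and fixed markers of pluripotency, heart and other cell types. Other list members were added after their values were seen. The members, the 36 lists, the named genes and the tests were chosen with earlier results of these data known, so lists are described by counts and medians. On data simulated for day 14 against day 0 over 23332 clusters with 200 changed, the fit recovered 1.49% of log2 changes of 1, 77.6% of 2 and 100% of 4, with 5 false calls.

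Alternatives were the samples of the 2 stages alone, a replicate block, centring, quantile normalization, a filter at the 25th percentile, trend and robust moderation, a minimum difference of 1, means of exon-level probe sets (log2, deposited by the same route), and each sample left out.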

Additional observations from a re-analysis of the deposited data

How the results depend on the processing

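Counts are given as clusters higher, lower, higher in no heart list, and lost for good, against 614, 160, 473 and 116. Samples of day 0 and day 14 alone gave 475, 70 and 367, with no loss set. The replicate block gave 549, 133, 422 and 97. The numbers were not taken as pairs: deviations of replicate 1 from the stage mean correlated at 0.486 between day 0 and day 14 but at 0.0826 and 0.0913 for the other pairs. Centring gave 510, 276, 388 and 199 and moved the median of all clusters to -0.158. Quantile normalization gave 549, 206, 415 and 149 (72.7% of calls higher). The filter at 4.88 gave 822, 288, 659 and 208, trend with robust moderation 696, 214, 536 and 157, a minimum difference of 1 gave 613, 152, 472 and 110, and means of exon-level probe sets over 16358 symbols gave 1017, 376, 909 and 242. With 1 sample left out, where the lone sample of a stage is assumed to vary like the other stages, the ranges were 138 to 475, 11 to 70, 81 to 367 and 8 to 54. The cause of these shifts was not tested. Of 101 called named genes, none changed direction under any alternative, but many lost their call with a day 0 or day 14 sample left out. The uncalled Dppa5a ranged from -0.3 to 0.0 with 1 sample left out, against -0.15.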

Other observations

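Some listed genes share their cluster with another symbol or have none at the gene level, and exon-level means, chosen with the data in view, fill the gap. Acadl, an acyl-CoA dehydrogenase of fatty acid oxidation, read 6.51 and 6.62 at day 0, 7.53 and 6.99 at day 7 and 9.14 and 9.2 at day 14, a rise of 2.6 ± 0.23 (limma adjusted p = 0.000657 over the exon-level means). Cpt1b, which brings fatty acids into muscle mitochondria, rose by 2.51 ± 0.30 from 2 probe sets, while Acsl1, which activates fatty acids, differed by 0.51 ± 0.18 and was not called (adjusted p = 0.145). Of 8 respiratory chain genes read in this way, Cycs, cytochrome c, rose by 1.24 ± 0.30 and Uqcrb, a subunit of the cytochrome reductase complex, by 1.07 ± 0.25 (adjusted p = 0.047 and 0.04), and the other 6 were not called. Adprhl1, a gene of the heart chambers, rose by 3.55 ± 0.24, and Tmem38a, a cation channel of the sarcoplasmic reticulum, by 2.56 ± 0.29. Apoa1, an apolipoprotein of liver and yolk sac, rose by 2.01 ± 0.34. C3, a complement protein made in liver that was listed here with epicardium and mesothelium, rose by 1.78 ± 0.20 (adjusted p = 0.00183). Spp1, osteopontin, read 11.52 and 11.35 at day 0, 6.96 and 7.77 at day 7 and 8.51 and 9.54 at day 14, a fall of 2.42 ± 0.39 (adjusted p = 0.00947). It was listed both with pluripotency and with cartilage and bone. Rex2, the other member of the pluripotency list taken from the exon level, read 12.38 and 12.25, then 10.46 and 10.72, then 12.23 and 12.01, and was not called.

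A few genes were called lower at day 14 and not at day 7, named here after their values were seen. Id1, an inhibitor of helix-loop-helix factors, fell by 1.46 from day 0 to day 14 and differed by 0.21 at day 7. Fxyd6, a regulator of the sodium pump, fell by 2.24 and differed by -0.60 at day 7. Elovl7, a fatty acid elongase, fell by 2.19 and differed by -0.52 at day 7, but its day 14 and day 7 samples were not called different (-1.67, limma adjusted p = 0.0755).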
